A study of Danio rerio with 12 samples.

Results

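Blood plasma carries lipoproteins, clotting factors and acute phase proteins that are made largely by the liver, and 37 zebrafish genes for such proteins were followed here by symbol through an RNA-seq comparison of benzo[a]pyrene and diclofenac. Of these, 36 were found among the 25768 symbols of the table, each at its most abundant entry, and 35 averaged at least 1 CPM (a read count after scaling libraries to the same total) and were tested. They fall into 11 lipoprotein genes, 14 clotting genes, 11 genes of acute phase proteins and carriers, and fabp10a. The clotting gene apoh, for a phospholipid-binding plasma glycoprotein, was not found by symbol. The fetuin gene ahsg1 averaged under 1 CPM and was not tested, with log2 changes of 1.09, -1.84 and -0.59 for BaP, Diclofenac and Mixture per the authors' deposited table.

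Whole zebrafish bodies were taken at 48 h in 4 groups of 3 libraries, 12 in all. The groups were Control, BaP (B[a]P in the labels, a combustion product and ligand of the Ah receptor), Diclofenac (a painkiller of the cyclooxygenase inhibitor class) and Mixture, which combined both compounds. The sources used here give no dose, strain, age or vehicle, and the labels call the samples of a group independent replicates without saying how many animals each holds. Libraries from polyadenylated RNA, made with a stranded kit, were read at 40000000 to 80000000 reads each, per the labels. The authors' deposited table combines the replicates, so the depth of each library and the spread between libraries cannot be shown. It gives a log2 change against Control with a likelihood ratio and an unadjusted p-value for 35497 entries, an entry being 1 transcript class of 1 gene identifier. Each SE (standard error) and 95% interval is the one that the log2 change and its likelihood ratio imply, and the members' implied SE had a median of 0.22 log2 units in each of the 3 treatments. A gene is called, and is said to rise or fall, where its p, after Benjamini-Hochberg adjustment across the 21622 entries with an average of 1 CPM or more, was under 0.05.

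Apolipoproteins are the protein scaffolds and recognition signals of the particles that move cholesterol and triacylglycerol through blood. Many clotting factors, though not all, circulate as inactive proteases and are held in check by serpins. Acute phase proteins are those whose liver synthesis shifts during inflammation. In young fish several apolipoproteins are also made by the yolk syncytial layer and the intestine. In whole-body RNA, fewer cells of a type and less RNA per cell cannot be told apart.

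The liver label held unevenly. Among 43 hepatocyte enzyme and transporter genes, 40 were found and 35 averaged at least 1 CPM, among them bhmt, but the liver-restricted bile acid synthesis gene cyp7a1 averaged 0.247 CPM, ttr (transthyretin) 0.270 CPM and tdo2a 0.864 CPM. The label of a secreted protein does not hold for fabp10a, whose product binds bile acids and fatty acids inside hepatocytes and which is a marker of these cells. This marker averaged 2.20 CPM, beside 3165 CPM for apoa1b and 3588 CPM for apobb.1. CPM takes no account of transcript length, so levels of different genes are set side by side only roughly. The values of fabp10a are given apart, but it is counted among the 35 genes tested unless the secreted genes are named. Levels per group are quoted as implied CPM, computed from the average log2 CPM and the log2 changes per the authors' deposited table. They are approximate, since the group totals came to 970190, 1026264, 996698 and 1037556 in Control, BaP, Diclofenac and Mixture.

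Summed over the 36 genes found, implied CPM was 15396 in Control, 13533 in BaP, 18148 in Diclofenac and 20336 in Mixture. The lipoprotein genes made up 12248, 10871, 15054 and 16687 of these. Sums for the clotting genes were 821, 654, 899 and 1022 CPM, and for the acute phase proteins and carriers 2323, 2006, 2194 and 2625 CPM. All 3 sums were lowest in BaP and highest in Mixture, a description of group sums with no test.

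Over all 35 genes tested, 0 were called with BaP, where the background was 0.148% of entries. At an unadjusted p under 0.05 there were 6 with BaP, hp, serpina1, f9b, fgg, kng1 and plg, all with log2 changes below 0, beside 3.98% of entries (likelihood ratio test). With BaP 31 of 35 lay below 0, with a median of -0.27, beside 47.3% of all entries below 0. Diclofenac raised 5 and lowered 3 genes, 22.9% of the 35 called, where 16.2% of all entries were called (8.52% higher and 7.64% lower). Mixture raised 7 and lowered 0, where 14.8% of entries were called (8.12% higher and 6.67% lower).

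The total share called with Diclofenac or Mixture was thus not far above the background, and the lower calls with Diclofenac, 8.57% of the genes, were close to it. Without fabp10a, 2 of the 34 secreted genes tested, 5.88%, fell with Diclofenac. The 7 Mixture calls were all higher, beside 8.12% of entries called higher. Median log2 changes were 0.12 with Diclofenac and 0.29 with Mixture, beside -0.01 and 0.02 for all entries. Of the 35, 21 and 28 lay above 0, beside 49.5% and 51.7% of all entries. All members were measured in the same libraries and each treatment was set against the same Control libraries, so these counts of signs are not counts of independent observations. Under the stricter Benjamini-Yekutieli adjustment 5 genes were called with Diclofenac and 4 with Mixture. The share of all entries called under that adjustment was not counted, so these counts have no background beside them.

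**Figure D1:**
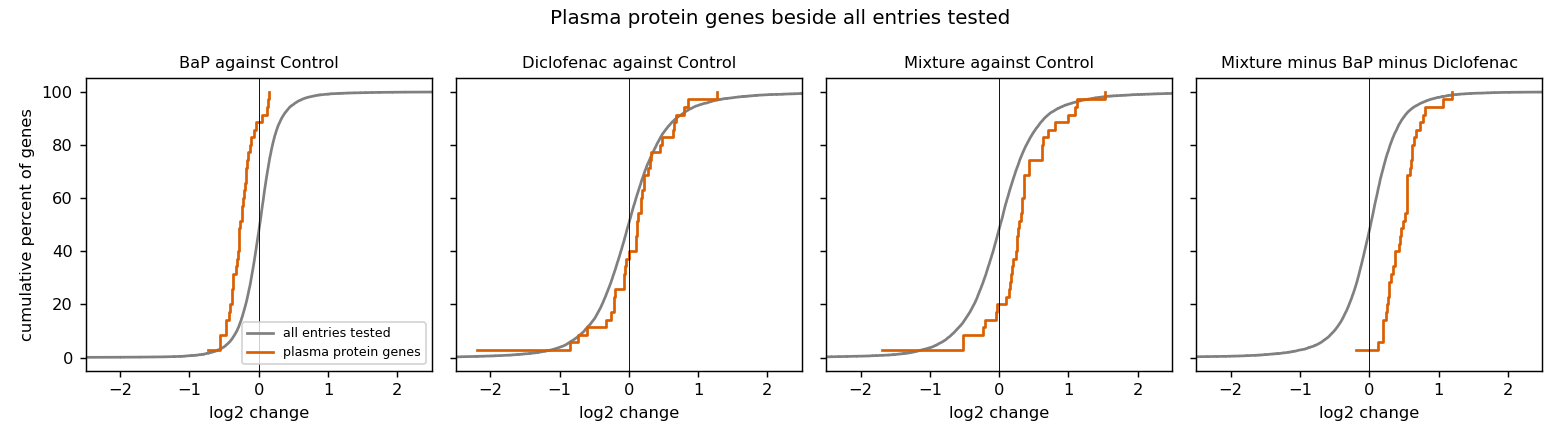
Cumulative percent of genes (vertical axis) by log2 change (horizontal axis, shown from -2.5 to 2.5) for the plasma protein genes and for all entries tested, in the 3 comparisons with Control and for the interaction. The curve of the plasma protein genes lies left of that of all entries with BaP (medians -0.27 and 0.02) and right of it with Mixture (0.29 and 0.02) and for the interaction (0.49 and 0.02).

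Among the lipoprotein genes, lcat and apobb.1 rose with Diclofenac and with Mixture, apoeb and apoa1a rose with Mixture, and apoc2 fell with Diclofenac. The largest rise of any member tested was that of lcat, which esterifies cholesterol on HDL particles. Its implied CPM was 3.68 in Control, 3.00 in BaP, 8.89 in Diclofenac and 10.6 in Mixture. With Diclofenac lcat rose by 1.27 ± 0.30 (implied SE) on the log2 scale per the authors' deposited table, a 2.42-fold change (likelihood ratio test, adjusted p = 0.000349). With Mixture it rose by 1.52 ± 0.29 per the authors' deposited table, a 2.87-fold change (likelihood ratio test, adjusted p = 1.05e-05). With BaP lcat had a log2 change of -0.29 and was not called (adjusted p = 1, likelihood ratio test on the authors' deposited table).

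The gene apobb.1 encodes an apolipoprotein B, the structural protein of the large triacylglycerol-rich particles. It had an implied CPM of 2877 in Control, 2435 in BaP, 4593 in Diclofenac and 4449 in Mixture. It rose by 0.68 ± 0.23 with Diclofenac and by 0.63 ± 0.23 with Mixture on the log2 scale per the authors' deposited table (likelihood ratio test, adjusted p = 0.0231 and 0.0402). The other apolipoprotein B gene, apoba, stood at 470 CPM in Control, 410 in BaP, 311 in Diclofenac and 463 in Mixture. None of its 3 changes was called, and its log2 change with Diclofenac was -0.60 ± 0.34 per the authors' deposited table (likelihood ratio test, adjusted p = 0.234).

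The apolipoprotein E gene apoeb, whose product is a ligand of receptors of the LDL receptor family, had an implied CPM of 855 in Control, 933 in BaP, 1325 in Diclofenac and 1872 in Mixture. It rose by 1.13 ± 0.25 with Mixture on the log2 scale per the authors' deposited table (likelihood ratio test, adjusted p = 0.000128), a 2.19-fold change. With Diclofenac its log2 change was 0.63 ± 0.24 per the authors' deposited table and missed the threshold (likelihood ratio test, adjusted p = 0.0573). The gene apoa1a, for the main protein of HDL, went from 1227 CPM in Control to 1092 in BaP, 1710 in Diclofenac and 1895 in Mixture. It rose by 0.63 ± 0.22 with Mixture (adjusted p = 0.0396) and had a log2 change of 0.48 ± 0.22 with Diclofenac that was not called (adjusted p = 0.137, likelihood ratio test on the authors' deposited table). Its duplicate apoa1b had log2 changes of -0.18, 0.28 and 0.35 for BaP, Diclofenac and Mixture per the authors' deposited table, none of them called. The Mixture calls of apoa1a and apobb.1 were lost when the entries under 1 CPM were included in the adjustment (adjusted p = 0.0594 and 0.0602, likelihood ratio test).

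The lipoprotein gene that fell was apoc2, for the cofactor of lipoprotein lipase. Its implied CPM was 405 in Control, 350 in BaP, 225 in Diclofenac and 284 in Mixture. With Diclofenac it fell by 0.85 ± 0.22 on the log2 scale per the authors' deposited table (likelihood ratio test, adjusted p = 0.00181), and with Mixture its log2 change of -0.51 ± 0.22 was not called (adjusted p = 0.0970). In the RefSeq annotation of another assembly (GRCz12tu, used for gene order alone) apoc2 lies beside apoa2, in a run of genes that begins with apoeb and its direct neighbour apoc1. The 4 neighbours moved unequally per the authors' deposited table: with Mixture the log2 changes were 1.13 for apoeb, 0.26 for apoc1, 0.16 for apoa2 and -0.51 for apoc2. The genes apoc1 and apoa2, for proteins carried on HDL, were called in no treatment.

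The last lipoprotein genes were apom, for a carrier of a signalling sphingolipid on HDL, and cetp, for the protein that exchanges cholesteryl esters between particles. Neither was called against Control. Their log2 changes were -0.06, 0.13 and 0.36 for apom and -0.37, -0.22 and 0.15 for cetp, in the order BaP, Diclofenac, Mixture, per the authors' deposited table. Of 11 lipoprotein genes, 0 were called with BaP (0 also at an unadjusted p under 0.05, likelihood ratio test), 2 rose and 1 fell with Diclofenac, and 4 rose and 0 fell with Mixture. The shares called were 27.3% with Diclofenac and 36.4% with Mixture, beside 16.2% and 14.8% of all entries. The median log2 changes of the 11 were -0.20, 0.13 and 0.35, beside 0.02, -0.01 and 0.02 for all entries tested.

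**Figure D2:**
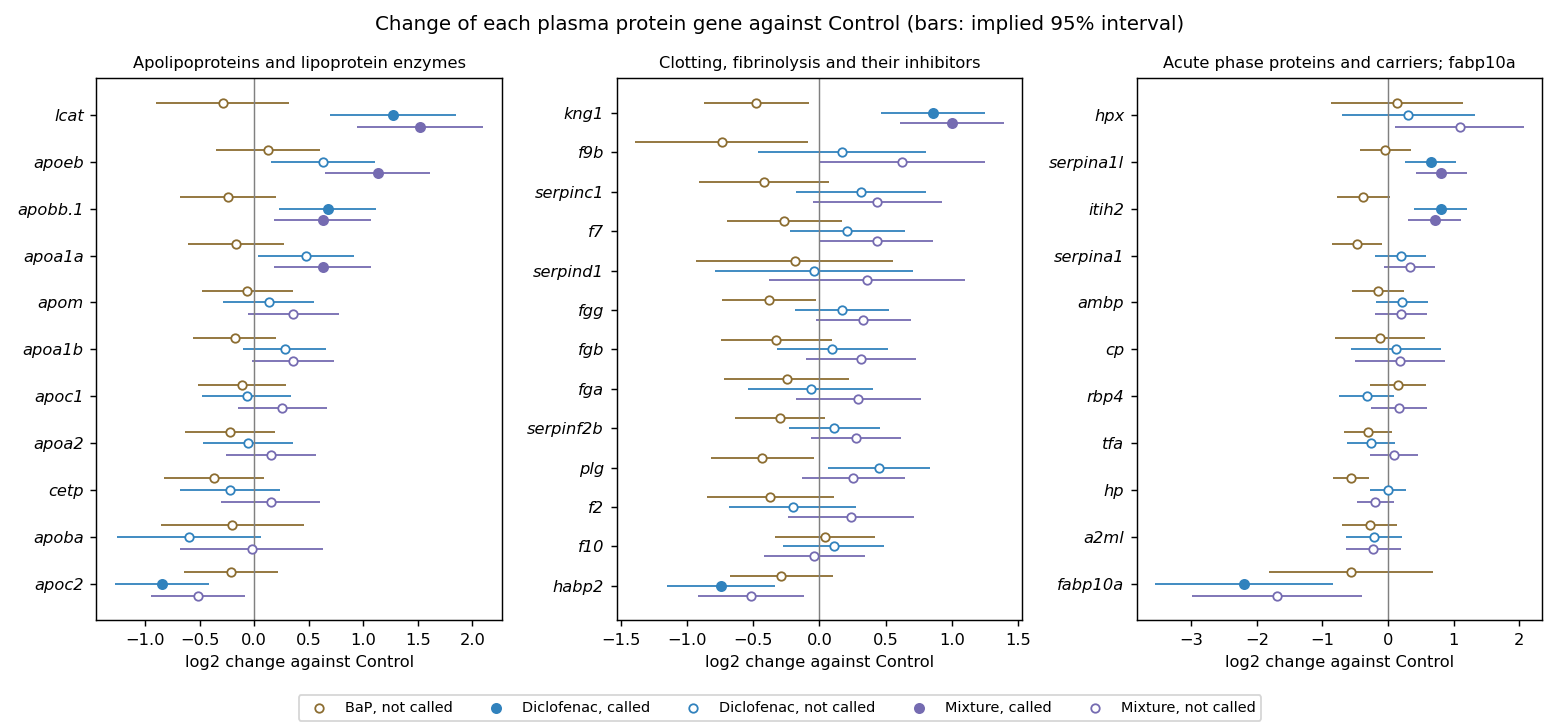
Each row is a plasma protein gene and the horizontal axis is its log2 change against Control, with circles for BaP, Diclofenac and Mixture, filled where called, and bars for the implied 95% interval. The panels have different axis ranges. No BaP circle is filled, lcat reaches 1.27 and 1.52 and kng1 0.86 and 1.00 with Diclofenac and Mixture, and fabp10a lies at -2.19 and -1.69.

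Among the clotting genes the kininogen gene kng1, for the precursor of the vasoactive peptide bradykinin, rose with both Diclofenac and Mixture. Its main entry had an implied CPM of 24.3 in Control, 17.4 in BaP, 43.9 in Diclofenac and 48.6 in Mixture. The rises were 0.86 ± 0.20 with Diclofenac and 1.00 ± 0.20 with Mixture on the log2 scale per the authors' deposited table, 1.81-fold and 2.00-fold (likelihood ratio test, adjusted p = 0.000375 and 2.11e-05). With BaP the log2 change was -0.48 ± 0.20 per the authors' deposited table and was not called (adjusted p = 1).

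The gene habp2, for a hyaluronan-binding serine protease that acts on coagulation factors, moved the other way. It had an implied CPM of 11.5 in Control, 9.43 in BaP, 6.88 in Diclofenac and 8.05 in Mixture. It fell by 0.74 ± 0.21 with Diclofenac on the log2 scale per the authors' deposited table (likelihood ratio test, adjusted p = 0.00411). With Mixture the log2 change of -0.52 ± 0.20 per the authors' deposited table was not called (adjusted p = 0.0671).

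Of the 13 clotting genes tested, kng1 and habp2 were called against Control, and the other 11 were not. The 3 fibrinogen chain genes fga, fgb and fgg, whose products form the fibres of a clot, had log2 changes of -0.25, -0.32 and -0.38 with BaP per the authors' deposited table. With Diclofenac the same chains had -0.07, 0.10 and 0.17, and with Mixture 0.29, 0.31 and 0.33, per the authors' deposited table. The implied CPM of fgg was 133 in Control, 102 in BaP, 150 in Diclofenac and 167 in Mixture. The 3 chains thus lay below 0 with BaP and above 0 with Mixture, and each implied 95% interval included 0 except that of fgg with BaP.

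The prothrombin gene f2 had log2 changes of -0.37, -0.20 and 0.24 for BaP, Diclofenac and Mixture per the authors' deposited table. The genes f7, f9b and f10 encode vitamin K dependent proteases of the cascade. For f9b the changes were -0.74, 0.17 and 0.63, for f7 -0.27, 0.21 and 0.43, and for f10 0.04, 0.11 and -0.04, all per the authors' deposited table. For f9b the implied CPM was 4.55, 2.73, 5.11 and 7.02 in Control, BaP, Diclofenac and Mixture. Plasminogen, the precursor of the clot-dissolving protease plasmin, is encoded by plg, whose implied CPM was 86.3, 64.1, 118 and 103 in the same order. Its log2 change with Diclofenac was 0.45 ± 0.20 per the authors' deposited table and was not called (likelihood ratio test, adjusted p = 0.106).

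The serpin genes of the group encode inhibitors of clotting or clot dissolution: serpinc1 (antithrombin), serpind1 (heparin cofactor) and serpinf2b (antiplasmin). With BaP their log2 changes were -0.42, -0.19 and -0.30, with Diclofenac 0.31, -0.04 and 0.11, and with Mixture 0.44, 0.36 and 0.28, per the authors' deposited table, none of them called. Of 13 clotting genes tested, 0 were called with BaP (4 at an unadjusted p under 0.05, likelihood ratio test), 1 rose and 1 fell with Diclofenac, and 1 rose and 0 fell with Mixture. The shares called, 15.4% with Diclofenac and 7.69% with Mixture, did not exceed the 16.2% and 14.8% of all entries. The median log2 changes were -0.32, 0.11 and 0.31.

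Among acute phase proteins and carriers, itih2 and serpina1l rose with Diclofenac and with Mixture. The gene itih2 encodes a heavy chain of the inter-alpha-trypsin inhibitor, which is linked to hyaluronan in matrix. Its implied CPM was 77.5 in Control, 59.7 in BaP, 135 in Diclofenac and 127 in Mixture. It rose by 0.80 ± 0.20 and 0.71 ± 0.20 with Diclofenac and Mixture on the log2 scale per the authors' deposited table (likelihood ratio test, adjusted p = 0.00145 and 0.00650). The antitrypsin-type protease inhibitor gene serpina1l had an implied CPM of 120 in Control, 117 in BaP, 189 in Diclofenac and 211 in Mixture. It rose by 0.65 ± 0.20 and 0.81 ± 0.20 per the authors' deposited table (likelihood ratio test, adjusted p = 0.00971 and 0.000853).

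The neighbouring paralog serpina1 had an implied CPM of 237 in Control, 171 in BaP, 271 in Diclofenac and 298 in Mixture. Its log2 changes of -0.47, 0.19 and 0.33 per the authors' deposited table were not called. How reads shared by the paralogs were divided is not stated in the sources used here, so the values of each are uncertain to that extent.

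The gene hp encodes haptoglobin, which binds hemoglobin released from red cells, and came closest of all members to a call with BaP. Its main entry had an implied CPM of 36.2 in Control, 24.5 in BaP, 36.1 in Diclofenac and 31.6 in Mixture. The log2 change with BaP was -0.56 ± 0.14 per the authors' deposited table (likelihood ratio test, adjusted p = 0.0534). It passed, as the single member called with BaP, when all changes were centred on the median of the entries tested. The heme-binding hemopexin gene hpx had an implied CPM of 1.51, 1.66, 1.87 and 3.21 in the 4 groups, and its log2 change of 1.09 ± 0.50 with Mixture per the authors' deposited table was not called (adjusted p = 0.131).

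The remaining carriers and protease inhibitors were not called in any treatment. They were the iron carrier transferrin (tfa), the copper protein ceruloplasmin (cp), the retinol carrier rbp4, the bikunin precursor ambp and the macroglobulin protease trap a2ml. For tfa the log2 changes were -0.31, -0.27 and 0.09, for rbp4 0.15, -0.33 and 0.17, and for a2ml -0.28, -0.22 and -0.23 per the authors' deposited table. Both ambp and cp lay between -0.15 and 0.22 per the authors' deposited table. Of 10 acute phase and carrier genes tested, 0 were called with BaP (2 at an unadjusted p under 0.05, likelihood ratio test), and 2 rose and 0 fell with each of Diclofenac and Mixture. The share called was 20% with each, near the 16.2% and 14.8% of all entries. Their median log2 changes were -0.22, 0.15 and 0.19.

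The intracellular gene fabp10a had an implied CPM of 3.99 in Control, 2.70 in BaP, 0.874 in Diclofenac and 1.23 in Mixture. It fell by 2.19 ± 0.69 with Diclofenac on the log2 scale per the authors' deposited table (likelihood ratio test, adjusted p = 0.0142). With Mixture the log2 change of -1.69 ± 0.66 per the authors' deposited table was not called (adjusted p = 0.0654).

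The treatments were next compared with each other, by an approximate Wald test on the difference of the deposited log2 changes. The test assumes equal spread in all groups. The sources used here give no dose, so whether Mixture held each compound at the amount given alone is not known. Against BaP, Mixture was higher for 16 of 35 plasma protein genes and lower for 0, where 16.4% of all entries were called (8.33% higher and 8.12% lower). The 16 held 8 of 13 clotting genes, 5 of 11 lipoprotein genes and 3 of 10 acute phase and carrier genes. The median log2 difference was 0.54, beside 0.01 for all entries.

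Among the called genes, the largest differences between Mixture and BaP were those of lcat and kng1. For lcat the log2 difference was 1.81, with a 95% interval of 1.21 to 2.42 (adjusted p = 2.63e-07, approximate Wald test). For kng1 it was 1.48, from 1.08 to 1.87 (adjusted p = 3.83e-11, approximate Wald test). Next in size among the called genes, f9b was 1.36 higher, itih2 1.09 and apoeb 1.00 on the log2 scale (adjusted p = 0.000780, 4.35e-06 and 0.000820). The intracellular gene fabp10a, at -1.13, was not called (adjusted p = 0.287, approximate Wald test).

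Several clotting genes that were not called against Control differed between Mixture and BaP. The fibrinogen genes fgg and fgb were higher in Mixture than in BaP by 0.71 and 0.64 on the log2 scale (adjusted p = 0.00148 and 0.0220, approximate Wald test), while fga, at 0.54, was not called (adjusted p = 0.112). Factor genes f7 and f9b, plasminogen (plg), antithrombin (serpinc1) and antiplasmin (serpinf2b) were called in the same direction, with log2 differences between 0.57 and 1.36. The prothrombin gene f2, at 0.61, missed the threshold (adjusted p = 0.0677). Among the remaining genes called, serpina1 and serpina1l were higher in Mixture by 0.80 and 0.85, apobb.1 by 0.87, apoa1a by 0.79 and apoa1b by 0.54 on the log2 scale.

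**Figure D3:**
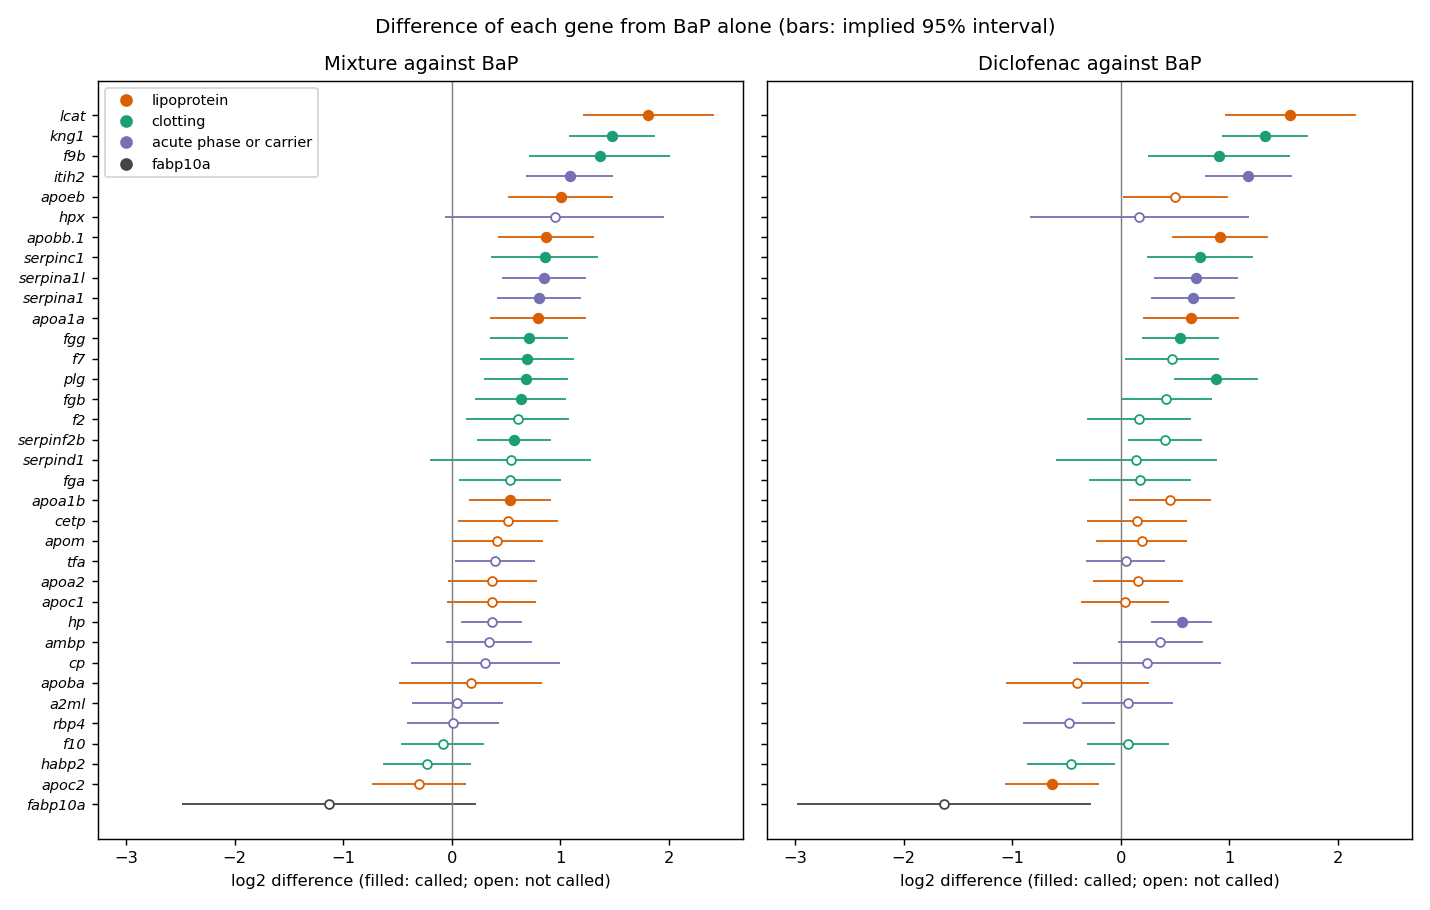
Each row is a plasma protein gene, with the log2 difference of Mixture (left) and Diclofenac (right) from BaP on the horizontal axis, bars for the implied 95% interval and colours for the functional group. Filled circles are called: 16 on the left, all above 0, and 13 on the right, of which apoc2 alone is below 0.

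Diclofenac against BaP gave a similar number of calls, 12 higher and 1 lower, where 19.1% of all entries were called (9.51% higher and 9.63% lower). The genes higher in Diclofenac were hp, itih2, serpina1, serpina1l, f9b, fgg, kng1, plg, serpinc1, apoa1a, apobb.1 and lcat. Their log2 differences ran from 0.55 for fgg to 1.56 for lcat, and hp stood 0.56 higher (adjusted p = 0.00117, approximate Wald test). The lower gene was apoc2, by a log2 difference of -0.63 (adjusted p = 0.0264, approximate Wald test). The median over the 35 was 0.37, beside -0.01 for all entries.

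Between Mixture and Diclofenac 0 of 35 genes were called by the approximate Wald test, where 0.365% of entries were called. At an unadjusted p under 0.05 there were 2, rbp4 and apoeb, with log2 differences of 0.49 and 0.50, beside 7.35% of entries. For apoeb the 95% interval ran from 0.02 to 0.98, for kng1 from -0.25 to 0.54 and for lcat from -0.36 to 0.86. The missing calls do not show that the treatments acted alike.

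The interaction asks whether the Mixture change differed from the sum of the changes with BaP and with Diclofenac alone. Without the doses, its estimate cannot be read as a departure from additivity at matched amounts. By the approximate Wald test 0 of 35 genes were called, where 0.0462% of entries were called. At an unadjusted p under 0.05 there were 7, beside 4.53% of entries: serpina1, tfa, f2, f9b, fgg, kng1 and cetp. For f9b the interaction was 1.196 log2 units (95% interval 0.27 to 2.12), for f2 0.81 (0.14 to 1.49) and for tfa 0.67 (0.15 to 1.19). In 34 of 35 genes the estimate lay above 0, f10 being the exception, beside 52.3% of all entries. The median was 0.49, beside 0.02 for all entries. The 3 changes that enter the interaction share the Control libraries, and the direction of its estimate over members of the same libraries is a description.

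Several genes were listed under more than 1 gene identifier. For apoa1a the main identifier (ENSDARG00000110395) held 69.1% of the average CPM of the symbol, and the second (ENSDARG00000012076) had log2 changes of 0.01, 0.43 and 0.08 for BaP, Diclofenac and Mixture per the authors' deposited table. The second identifier was not called with Mixture (likelihood ratio test, adjusted p = 0.822), where the main identifier was. The differences of apoa1a from BaP given above are those of the main identifier alone. Summed over both, apoa1a had log2 changes of -0.11, 0.46 and 0.47, values with no test.

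For kng1 the second identifier (ENSDARG00000112486) was called with Diclofenac and with Mixture (likelihood ratio test, adjusted p = 0.00126 and 0.00463). Its implied CPM was 0.0105 in Control, 0.955 in BaP, 4.57 in Diclofenac and 2.20 in Mixture. Summed over both identifiers kng1 had log2 changes of -0.40, 1.00 and 1.06. For hp, ambp and f9b the second identifier held the smaller share as well, and 2 additional identifiers of serpinc1 carried identical values in each comparison. The second identifier of hp averaged 5.30 CPM and had a log2 change of -0.0009 with BaP per the authors' deposited table, unlike the main identifier. Summed over both identifiers, hp had a log2 change of -0.48 with BaP, a value with no test. The second identifier of ambp was not called against Control. It was higher than in BaP by 1.08 in Mixture and by 1.23 in Diclofenac on the log2 scale (adjusted p = 0.00640 and 0.00124, approximate Wald test). The main identifier of ambp was called in neither of these comparisons. How reads were divided between such copies is not given in the sources used here, so values per identifier are uncertain for these genes.

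**Figure D4:**
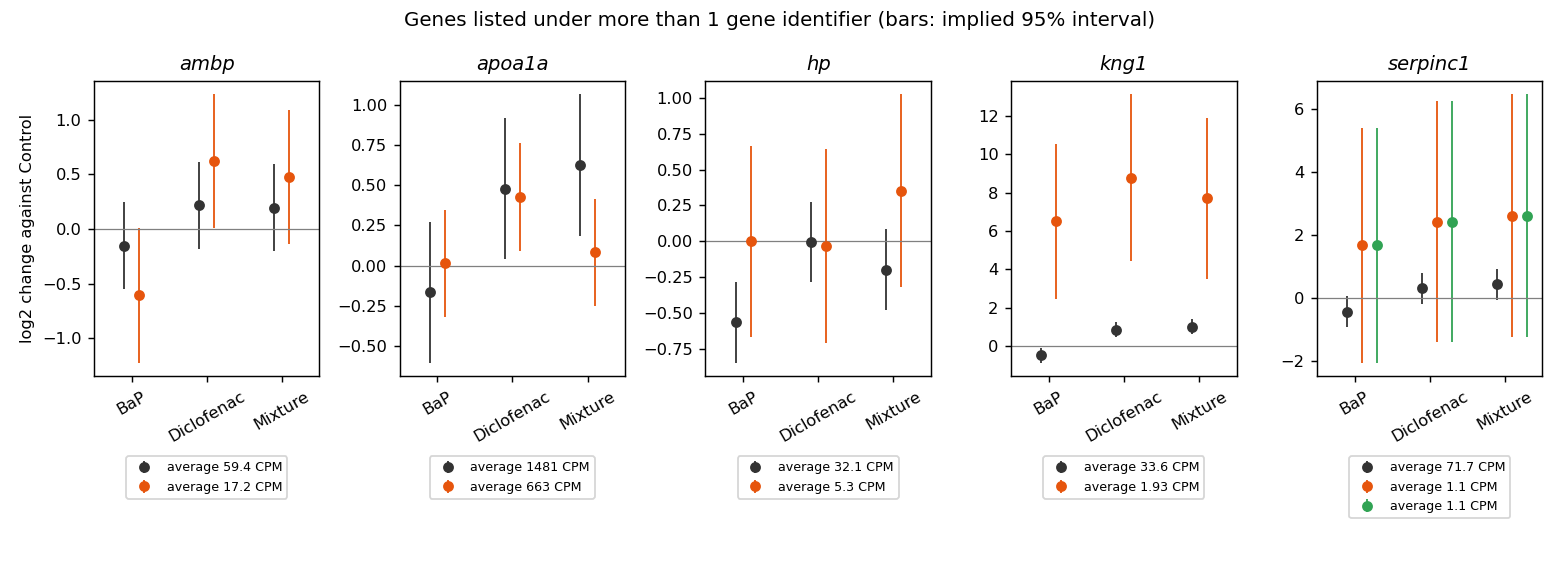
Log2 change against Control (vertical axis, a separate range in each panel) for the 5 plasma protein genes with more than 1 tested protein-coding gene identifier, with 1 colour per identifier, its average CPM below and bars for the implied 95% interval. The entries of apoa1a differ with Mixture (0.63 and 0.08), and the low entry of kng1 lies at 6.51, 8.77 and 7.71 against a Control level near 0.

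Genes around the plasma proteins were counted from 10 lists. The counts of each list stand beside 8.52% of all entries called higher and 7.64% lower with Diclofenac. With Mixture these shares were 8.12% and 6.67%. Of 36 further secreted plasma protein genes tested, 8 rose and 7 fell with Diclofenac and 8 rose and 6 fell with Mixture. The insulin-like growth factor binding protein gene igfbp1a rose by 3.08 and 2.55 on the log2 scale per the authors' deposited table, the selenium carrier gene selenop fell with changes of -1.55 and -1.35, and mst1, a kringle protein related to hepatocyte growth factor, rose by 1.33 and 1.31.

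Of 21 acute phase signalling genes, 9 rose and 1 fell with Diclofenac and 10 rose and 0 fell with Mixture. The cytokine signalling inhibitor genes socs3a and socs3b rose by 3.03 and 2.41 with Diclofenac and by 3.44 and 2.41 with Mixture on the log2 scale per the authors' deposited table. The transcription factor gene cebpb, which acts on acute phase promoters in mammals, rose by 2.39 and 2.80 per the authors' deposited table. Summed over all 28 genes of the list, those under 1 CPM included, implied CPM was 425 in Control, 411 in BaP, 839 in Diclofenac and 841 in Mixture. Of 25 liver transcription factor genes, 7 rose and 1 fell with Diclofenac and 6 rose and 0 fell with Mixture, and creb3l3b, a membrane-bound factor of the liver and intestine, rose by 2.42 and 1.77 per the authors' deposited table. The list of liver transcription factors also holds cebpb.

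Of 31 genes of lipoprotein assembly, receptors and lipases, 9 rose and 2 fell with Diclofenac and 7 rose and 2 fell with Mixture. The lipoprotein lipase inhibitor gene angptl4 rose by 0.95 and 1.06 on the log2 scale per the authors' deposited table. The triacylglycerol synthesis gene dgat1a fell with Diclofenac, with a log2 change of -1.39, the lipid droplet coat gene plin2 rose with Mixture by 1.81 and the lipoprotein receptor gene lrp8 fell with Mixture, with -0.59, per the authors' deposited table. Of 20 genes of the vitamin K cycle and of the vessel side of clotting, 6 rose and 0 fell with each of Diclofenac and Mixture. The thrombin receptor gene f2r rose by 1.68 and 1.60 on the log2 scale, and the tissue factor gene f3b by 2.41 with Mixture, per the authors' deposited table.

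Of 35 hepatocyte enzyme and transporter genes, 8 rose and 8 fell with Diclofenac and 9 rose and 3 fell with Mixture. The glucose release gene g6pca.1 rose by 1.32 and 1.47 on the log2 scale per the authors' deposited table, and agxtb, for a peroxisomal or mitochondrial aminotransferase, fell with Diclofenac, with a change of -2.33. The homocysteine methylation gene bhmt rose by 0.80 with Mixture per the authors' deposited table. Summed over the 40 genes of the list found, implied CPM was 3710 in Control, 3587 in BaP, 5227 in Diclofenac and 5655 in Mixture.

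Markers of other cell types moved as well, beside 8.52% and 8.12% of all entries called higher with Diclofenac and Mixture. Of 14 erythrocyte genes, 7 rose with Diclofenac and 10 with Mixture, and 0 fell. Summed over the 17 found, those under 1 CPM included, implied CPM was 5191, 7483, 7274 and 8844 in Control, BaP, Diclofenac and Mixture. Of 14 macrophage and neutrophil genes, 8 rose with Diclofenac and 3 with Mixture, and 0 fell. Sums over the 15 genes found were 130, 142, 266 and 217 CPM. The protease gene mmp9 rose by 3.93 and 3.55 on the log2 scale per the authors' deposited table. A large part of the rise of these sums came from mmp9. The median log2 changes of the 14 genes were 0.73 with Diclofenac and 0.52 with Mixture, beside -0.01 and 0.02 for all entries. Of 8 enterocyte genes, 0 were called with Diclofenac, and 2 rose and 1 fell with Mixture. At an unadjusted p under 0.05 there were 3 with Diclofenac, where 27.6% of all entries had such a p (likelihood ratio test). Sums over the 11 enterocyte genes found were 801, 682, 867 and 992 CPM. With Mixture fabp2 and fabp1b.1, both for fatty acid binding proteins, rose by 1.36 and 0.94 per the authors' deposited table. The gene vil1, for a brush border protein, fell with -1.24 per the authors' deposited table. Of 16 exocrine pancreas genes only 4 averaged at least 1 CPM, 1 of which rose with Diclofenac and 2 with Mixture. Sums over all 16 were 17.0, 17.6, 21.9 and 22.5 CPM. The part of these cell types in the plasma protein values was not tested.

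With BaP 0 genes were called in each of the 10 lists by the likelihood ratio test. At an unadjusted p under 0.05 there were 10 of 14 erythrocyte genes, with a list median of 0.56, and 10 of 36 further secreted plasma protein genes, with a median of -0.26. In the other 8 lists there were 0 to 3. Of all entries tested, 3.98% had such a p (likelihood ratio test), and their median log2 change was 0.02.

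**Figure D5:**
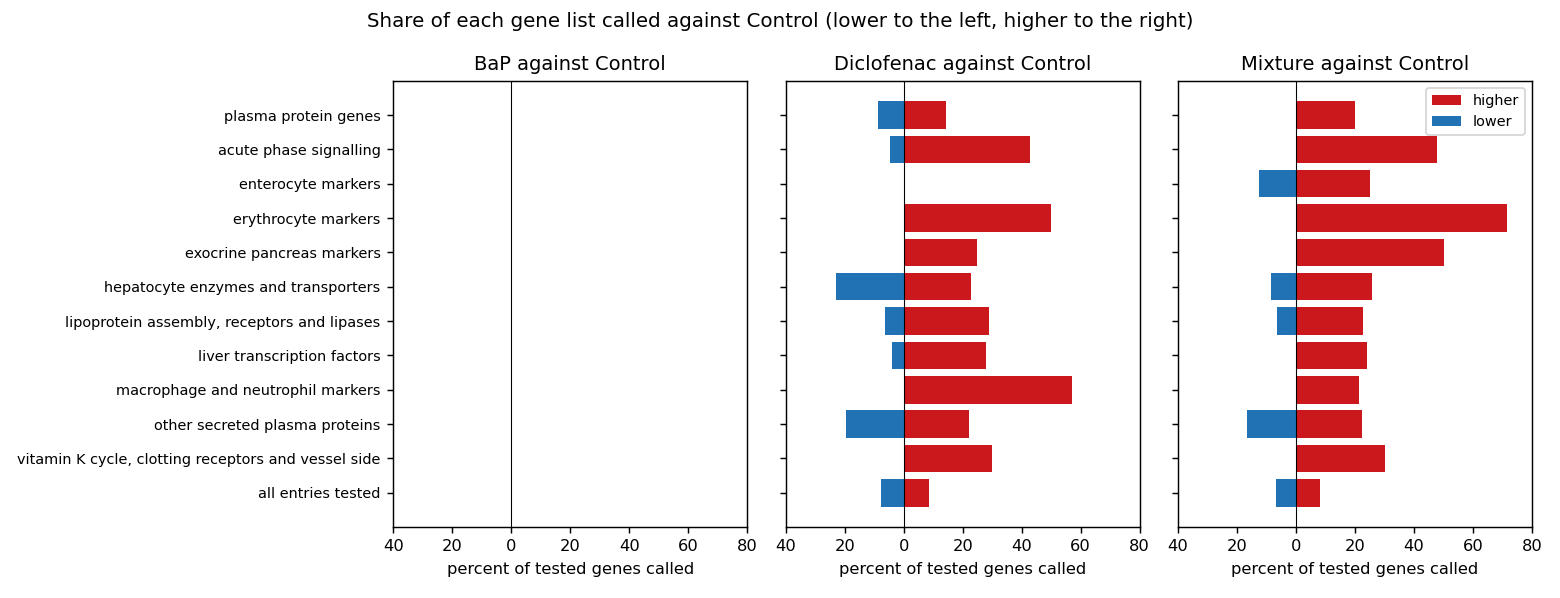
Percent of the tested genes of each list that were called against Control (horizontal axis, lower to the left and higher to the right) for the plasma protein genes, the 10 further lists and all entries tested. The BaP panel has no visible bar, since 0 members of any list and 0.148% of all entries were called.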

How the data were processed

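RNA from 12 whole-body samples (4 groups of 3, assigned from the labels) was analysed from the authors' comparison table, in which replicates are combined. Tools named in the submitters' processing notes are edgeR, limma and kallisto, and the build named is GRCz11, without roles or versions. Filters and scaling are not stated. The deposited log2 fold changes and average log2 CPM are the authors' values, per the file headers. A log base of 2 was inferred, since the averages raised on that base summed to 1007677 CPM. The deposited likelihood ratio is a score without a fixed range, and the deposited p-value equals its chi-square tail on 1 degree of freedom, so it is not adjusted. The 3 average columns were identical.

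Adjustment of the p-values followed Benjamini and Hochberg, across 21622 entries averaging at least 1 CPM, two-sided, at 0.05. The SE of a log2 change was taken as its size over the square root of the likelihood ratio. Differences between treatments used the largest of the 3 implied variances and the interaction double that variance, in a Wald test with equal spread assumed. The test was run on simulated data drawn with equal spread in all groups, so the simulation does not check that assumption. The smallest and largest variances had a median ratio of 1.03. All p-values rest on the spread between 3 libraries per group as the authors modelled it, which may be technical.

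Members, the 10 further lists and the tests were chosen with earlier results of these data known. Members called in any comparison are named with values, and up to 3 genes with the smallest p per list and treatment were eligible to be named. Some of these are not reported here. Count models on single libraries, other normalizations and replicates left out could not be run on a comparison table. Alternatives were the filter, the adjustment, a fold limit, centring, transcript classes, entries per symbol, the implied variance and subsets of members. Gene order came from a RefSeq table (34 members matched). No sequences were used here. Python 3.11.15, numpy 2.4.6, pandas 2.3.3, scipy 1.17.1 and matplotlib 3.10.9 were used.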

Additional observations from a re-analysis of the deposited data

Results flagged for a closer look

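The second identifier of the kininogen gene kng1 (ENSDARG00000112486), which enters no count of members, had log2 changes of 8.77 with Diclofenac and 7.71 with Mixture per the authors' deposited table, above a Control level near 0 (implied 0.0105 CPM). The size of each change depends on how the authors' fit treats a group near 0 and is no bound. The levels with Diclofenac and Mixture were 4.57 and 2.20 implied CPM, and with BaP, where the change was not called (likelihood ratio test, adjusted p = 0.351), 0.955 CPM. Read division between this entry and the main kng1 entry was not tested.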

How the results depend on the processing

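Of 364 alternative values for the 44 called changes of single genes, 297 kept direction and call, 67 kept direction and lost the call, and 0 reversed; stricter fold limits, the Benjamini-Yekutieli adjustment and testing without the CPM filter accounted for the losses. With centring on the median entry, BaP gave 1 called gene (hp). With a limit of 2-fold the called genes numbered 2 for Diclofenac, 3 for Mixture, 5 for Mixture against BaP and 3 for Diclofenac against BaP, and with the limit of 1.5 on the log2 change 1 for Diclofenac and 1 for Mixture. Benjamini-Yekutieli adjustment gave 5, 4, 9 and 7 in the same 4 comparisons. For the changed limits, adjustment, filters and centring, the share of all entries called was not counted. Genes with a single identifier alone, fewer by construction, gave 7 for Diclofenac against BaP. Without the CPM filter Mixture gave 5, since apoa1a and apobb.1 lost the call (likelihood ratio test, adjusted p = 0.0594 and 0.0602). With at least 5 CPM Diclofenac gave 6 higher and 2 lower. The lower count dropped as fabp10a was no longer tested, while the higher count gained a gene not called in the main test. For the fold-limit and Benjamini-Yekutieli settings between treatments, centring between treatments and the subsets of members, the choice was made after seeing the data. No paired analysis was possible because the table combines the replicates of each group. Leaving out replicates, other normalizations and count models were not run for the same reason. Depth per library is unknown, so no counting interval is given, and calls rest on 3 libraries per group.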
